A study of Mus musculus with 5 samples.

Results

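The genes described here encode the core proteins of small nucleolar ribonucleoproteins (snoRNPs) and 2 nucleolar assembly proteins, and they were taken by gene symbol, 10 of the 40879 symbols in the count tables. Fbl, Nop56, Nop58 and Snu13 encode the protein core of box C/D snoRNPs. Dkc1, Nhp2, Nop10 and Gar1 encode that of box H/ACA snoRNPs, and Nolc1 and Npm1 encode nucleolar chaperones. All 10 were listed in all 5 libraries with at least 96 counts in each.

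Transcripts were counted by sequencing of their polyadenylated 3′ ends in BV-2 cells, an immortalised mouse microglial line. The groups were UPM (urban particulate matter at 50 µg/mL for 23 h), TZ 1.25, TZ 2.5 and TZ 5 (trazodone, an antidepressant, at 1.25, 2.5 or 5 µg/mL for 1 h before the same UPM exposure) and an untreated control. Each group was 1 library, so a comparison of 2 groups compares 2 libraries. Library totals ran from 6829720 to 7696168 counts. Of 12 microglial and macrophage markers all had counts, with a summed level of 3513 to 3937 CPM per library. A mean of 10 CPM was reached by 10 of them, but not by P2ry12 (0.666 to 1.60 CPM) or Tmem119 (3.06 to 7.45 CPM). In such bulk libraries fewer cells of a type and less RNA per cell cannot be told apart. Counts were also found for 6 of 7 neuronal, 5 of 6 astrocyte, 5 of 6 oligodendrocyte and 5 of 6 fibroblast markers, none with a mean of 10 CPM. Their summed levels were 0.666 to 1.52 CPM for neurons, 0.133 to 1.73 CPM for astrocytes, 8.32 to 11.3 CPM for oligodendrocytes and 1.05 to 6.06 CPM for fibroblasts. Slc17a7 (neurons), Aqp4 (astrocytes), Mog (oligodendrocytes) and Lum (fibroblasts) were at 0 in all 5 libraries. Of the 5 endothelial markers, summed at 260.5 to 295 CPM, Flt1 reached a mean of 10 CPM and the others did not.

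A snoRNP is a short guide RNA in a shell of 4 proteins. Box C/D particles methylate ribose in ribosomal RNA with fibrillarin, the product of Fbl, as the enzyme. Box H/ACA particles turn uridine into pseudouridine with dyskerin, the product of Dkc1, as the enzyme, and the same H/ACA proteins bind telomerase RNA. Most vertebrate guide RNAs are cut from introns of other genes, among them genes for nucleolar proteins, so a host gene gives rise to an mRNA and to a guide RNA from the same transcript.

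Nop56 is such a host. The mouse annotation of GENCODE release M21 places several snoRNA genes inside Nop56 on chromosome 2, and the sequences of the pair with the most counts are shown because their levels are set beside that of their host further on. Capitals mark letters that match box elements. In Gm24451 the letters AGANNA, a common form of box H, match at positions 51 and 60. Which match is box H was not determined. The ACA lies 3 bases from the end. In Gm23650 the capitals are TGATG of box C and CTGA of box D.
Gm24451: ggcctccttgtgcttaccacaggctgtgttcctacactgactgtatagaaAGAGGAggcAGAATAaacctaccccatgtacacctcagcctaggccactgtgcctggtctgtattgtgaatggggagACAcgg
Gm23650: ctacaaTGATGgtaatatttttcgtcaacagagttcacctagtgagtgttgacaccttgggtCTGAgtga

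Of the box C/D proteins, Nop58 was the member with the clearest relation to TZ. Nop58 forms a heterodimer with Nop56 that bridges the guide RNA and the enzyme. Levels are given as CPM, counts per 1000000 of the library total, scaled by the trimmed mean of M-values (TMM), with a 95% exact Poisson interval in parentheses that covers counting error only. Nop58 had 596 CPM (579 to 613) in UPM, 655 CPM (637 to 674) in TZ 1.25, 800.3 CPM (779 to 822) in TZ 2.5 and 864 CPM (842 to 886) in TZ 5, against 702 CPM (683 to 721) in the control. The 5 intervals did not overlap, and the control lay between TZ 1.25 and TZ 2.5. The fold between TZ 5 and UPM was 1.45 (95% exact conditional binomial interval 1.40 to 1.51), and that between TZ 5 and control was 1.23 (1.19 to 1.28).

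Nop56, its partner, had 108 CPM in UPM, 110 CPM (102 to 118) in TZ 1.25, 114 CPM (106 to 122) in TZ 2.5 and 127 CPM (118 to 135) in TZ 5, against 133 CPM (125 to 142) in the control. UPM was the lowest library and the control the highest, and the interval of TZ 5 overlapped that of the control. Counts of Nop58 per count of Nop56, a ratio that no scaling of libraries can change, numbered 6.82 in TZ 5 and 5.54 in UPM, a ratio of ratios of 1.23 (1.11 to 1.37). This ratio was picked after the values were seen.

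Fbl, the methyltransferase, was counted at low depth, with 150 to 203 counts per library. It had 19.6 CPM (16.6 to 23.0) in UPM, 26.3 CPM (22.7 to 30.4) in TZ 1.25, 27.6 CPM (23.8 to 31.8) in TZ 2.5 and 26.7 CPM (23.0 to 30.8) in TZ 5, against 27.0 CPM (23.4 to 31.0) in the control. UPM was the lowest library, with an interval below those of TZ 2.5 and the control and just overlapping those of TZ 1.25 and TZ 5. The fold between UPM and control was 0.725 (0.583 to 0.900).

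Snu13, which binds the kink of the guide RNA first and is also part of the spliceosome, had the widest range of the 10 members. It had 25.5 CPM (22.03 to 29.3) in UPM, 13.3 CPM (10.8 to 16.2) in TZ 1.25, 16.5 CPM (13.6 to 19.8) in TZ 2.5 and 18.9 CPM (15.8 to 22.4) in TZ 5, against 24.6 CPM (21.2 to 28.4) in the control. All 3 TZ libraries were below UPM, with the lowest dose the lowest. Its folds were 0.522 (0.405 to 0.670) for TZ 1.25 against UPM, 0.646 (0.508 to 0.818) for TZ 2.5 against UPM and 0.740 (0.588 to 0.928) for TZ 5 against UPM. These rest on 96, 114 and 130 counts in TZ 1.25, TZ 2.5 and TZ 5 and on 195 in UPM.

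**Figure D1:**
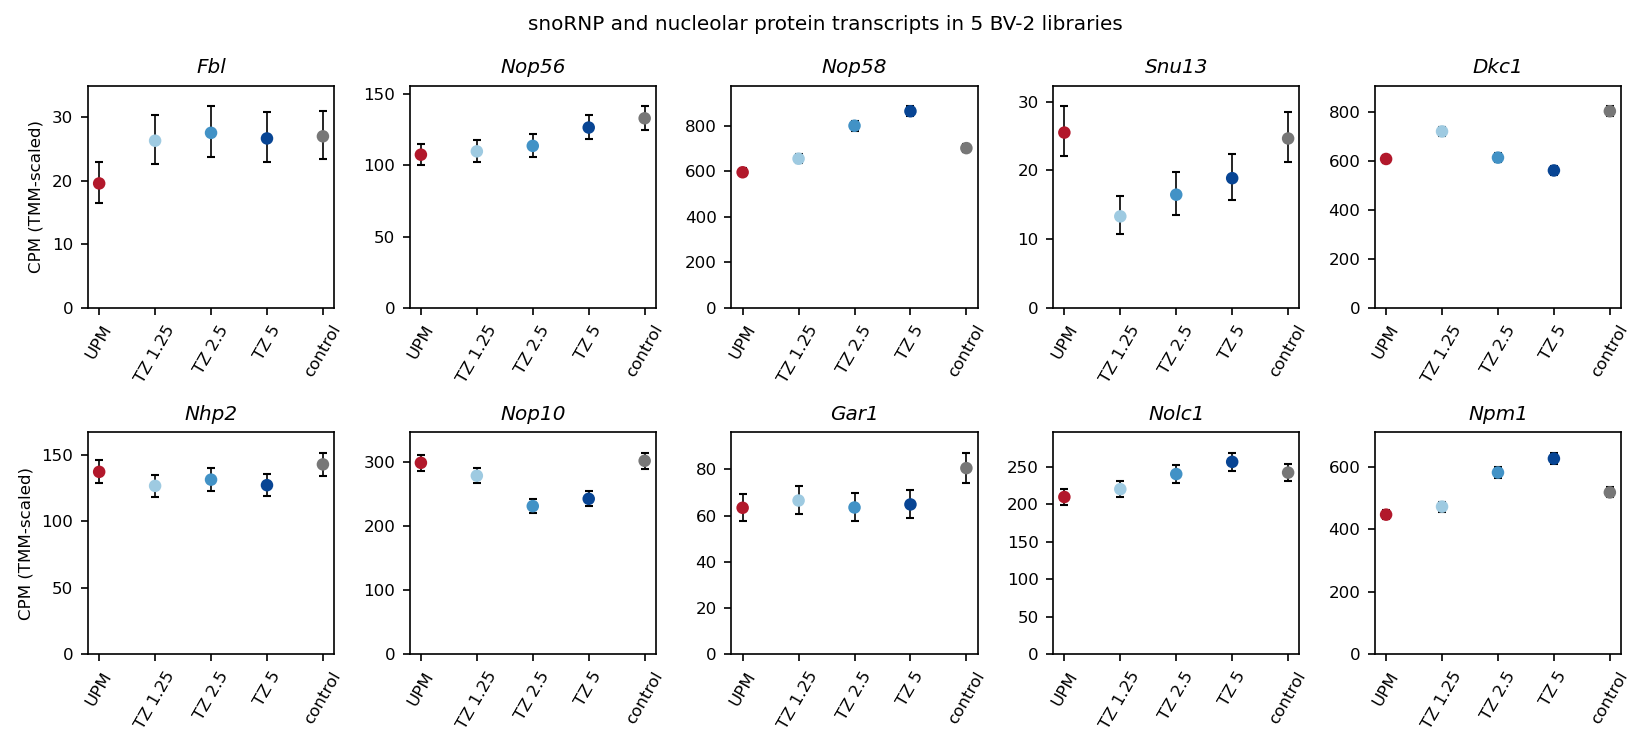
Level of each of the 10 transcripts (vertical axis, TMM-scaled CPM, from 0) in the 5 libraries (horizontal axis), 1 library per group, with bars for the 95% Poisson counting interval. Nop58 and Npm1 step upward across the TZ libraries, Dkc1 is highest in the control at 803 CPM, and Snu13 is lowest in TZ 1.25 at 13.3 CPM.

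Among the box H/ACA proteins, Dkc1 encodes dyskerin, the pseudouridine synthase, whose human gene is mutated in X-linked dyskeratosis congenita. Dkc1 had 608 CPM (590.2 to 625) in UPM, 720.0 CPM (701 to 739.8) in TZ 1.25, 613 CPM (595 to 632) in TZ 2.5 and 561 CPM (543 to 579) in TZ 5, against 803 CPM (782 to 823) in the control. The control was the highest library, apart from every other, and TZ 1.25 came next. The fold between UPM and control was 0.757 (0.728 to 0.787), and that between TZ 5 and control was 0.699 (0.671 to 0.728).

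Nop10 encodes a small protein that supports the catalytic site of dyskerin. It had 299 CPM (287 to 312) in UPM, 279 CPM (267 to 291) in TZ 1.25, 232 CPM (220.3 to 243) in TZ 2.5 and 243 CPM (231 to 255) in TZ 5, against 302 CPM (290.0 to 315) in the control. UPM and control overlapped, and TZ 2.5 and TZ 5 lay below the 3 other libraries with intervals that did not reach theirs. The folds were 0.774 (0.726 to 0.825) for TZ 2.5 against UPM and 0.812 (0.762 to 0.865) for TZ 5 against UPM.

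Nhp2, which binds the H/ACA hairpin, was the steadiest member, with a highest to lowest ratio of 1.13 over the 5 libraries. It had 137 CPM in UPM, 127 CPM in TZ 1.25, 131 CPM in TZ 2.5 and 127 CPM in TZ 5, against 143 CPM in the control. Gar1, which helps the particle release its product, had 63.4 CPM (57.9 to 69.3) in UPM, 66.5 CPM in TZ 1.25, 63.5 CPM in TZ 2.5 and 64.8 CPM in TZ 5, against 80.5 CPM (74.2 to 87.2) in the control. All 4 particle-exposed libraries lay below the control for Gar1, and they differed from each other by less than their counting error.

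Of the 2 nucleolar chaperones, Npm1 had the same order of libraries as Nop58. Npm1 encodes nucleophosmin, an abundant histone and ribosome assembly chaperone that holds the outer layer of the nucleolus together. It had 447 CPM (432 to 462) in UPM, 473 CPM (457 to 489) in TZ 1.25, 582 CPM (564 to 600.1) in TZ 2.5 and 626 CPM (608 to 645) in TZ 5, against 518 CPM (502 to 535) in the control. The TZ 2.5 and TZ 5 libraries were above the control, and UPM and TZ 1.25 were below it. The fold between TZ 5 and UPM was 1.40 (1.34 to 1.47).

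Nolc1 encodes a serine-rich phosphoprotein that binds both kinds of snoRNP and shuttles between the nucleolus and Cajal bodies. It had 209.6 CPM (199 to 220.1) in UPM, 220.1 CPM (209 to 231) in TZ 1.25, 240.2 CPM (229 to 252) in TZ 2.5 and 256 CPM (245 to 269) in TZ 5, against 242 CPM (231 to 254) in the control. The particle-exposed libraries stood in order of dose, with the control between TZ 2.5 and TZ 5, but the intervals of neighbouring doses overlap. The fold between TZ 5 and UPM was 1.22 (1.14 to 1.31).

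UPM against control addresses the response to the particles alone. A call needed a change of 1.5-fold or more, up or down, an interval clear of 1 and a mean over both libraries of 10 CPM or more. By this rule 0 of 10 members were called, where the rule called 3.08% of the 8282 genes measured. With a fold of at least 1.2 in its place, 4 of 10 members were called, all lower in UPM, against 19.6% of all genes. They were Fbl, Nop56 at 0.808-fold (0.736 to 0.887), Dkc1 and Gar1 at 0.787-fold (0.697 to 0.888). The median log2 fold was −0.22 over the 10 members and −0.00 over all genes measured. Snu13, Nhp2 and Nop10 had intervals that held 1, at 1.03-fold, 0.961-fold and 0.990-fold.

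TZ 1.25, TZ 2.5 and TZ 5 against UPM address what the pretreatment changed in particle-exposed cells. The 3 comparisons share the UPM library, so a value that is off in that library moves all 3. At TZ 1.25 the 1.5-fold rule called 1 of 10 members, Snu13, which was lower, and 2.22% of all genes. The 1.2-fold rule added Fbl, higher at 1.34-fold (1.08 to 1.67), making 2 of 10 members against 16.4% of all genes. Dkc1 was at 1.18-fold (1.14 to 1.23), under that limit.

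At TZ 2.5 the 1.5-fold rule called Snu13 alone, 1 of 10 members, against 4.40% of all genes. The 1.2-fold rule called 5 of 10 members against 26.8% of all genes. Higher were Fbl at 1.41-fold (1.13 to 1.75), Nop58 at 1.34-fold (1.29 to 1.40) and Npm1 at 1.30-fold (1.24 to 1.36), and lower were Snu13 and Nop10.

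At TZ 5 the 1.5-fold rule called 0 of 10 members against 6.57% of all genes. The intervals of Nop58, Fbl and Snu13 reached past the limit, to 1.51, 1.70 and 0.588. The 1.2-fold rule called 6 of 10 members against 31.7% of all genes. Higher were Fbl at 1.36-fold (1.09 to 1.70), Nop58, Nolc1 and Npm1, and lower were Snu13 and Nop10. The median log2 fold was 0.34 over the box C/D proteins, −0.11 over the box H/ACA proteins, 0.39 over both chaperones and 0.00 over all genes measured.

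Against the control, TZ 5 had 0 of 10 members past 1.5-fold, with 6.06% of all genes called. At 1.2-fold 6 of 10 members were called against 30.0% of all genes. Higher than the control were Nop58 and Npm1, at 1.21-fold (1.16 to 1.26) for Npm1. Lower were Snu13 at 0.766-fold (0.607 to 0.963), Dkc1, Nop10 at 0.804-fold (0.754 to 0.856) and Gar1 at 0.805-fold (0.711 to 0.911). Fbl, Nop56 and Nolc1 had intervals that held 1. Of the 4 H/ACA transcripts, Nhp2 alone was not called there, at 0.891-fold (0.814 to 0.975).

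**Figure D2:**
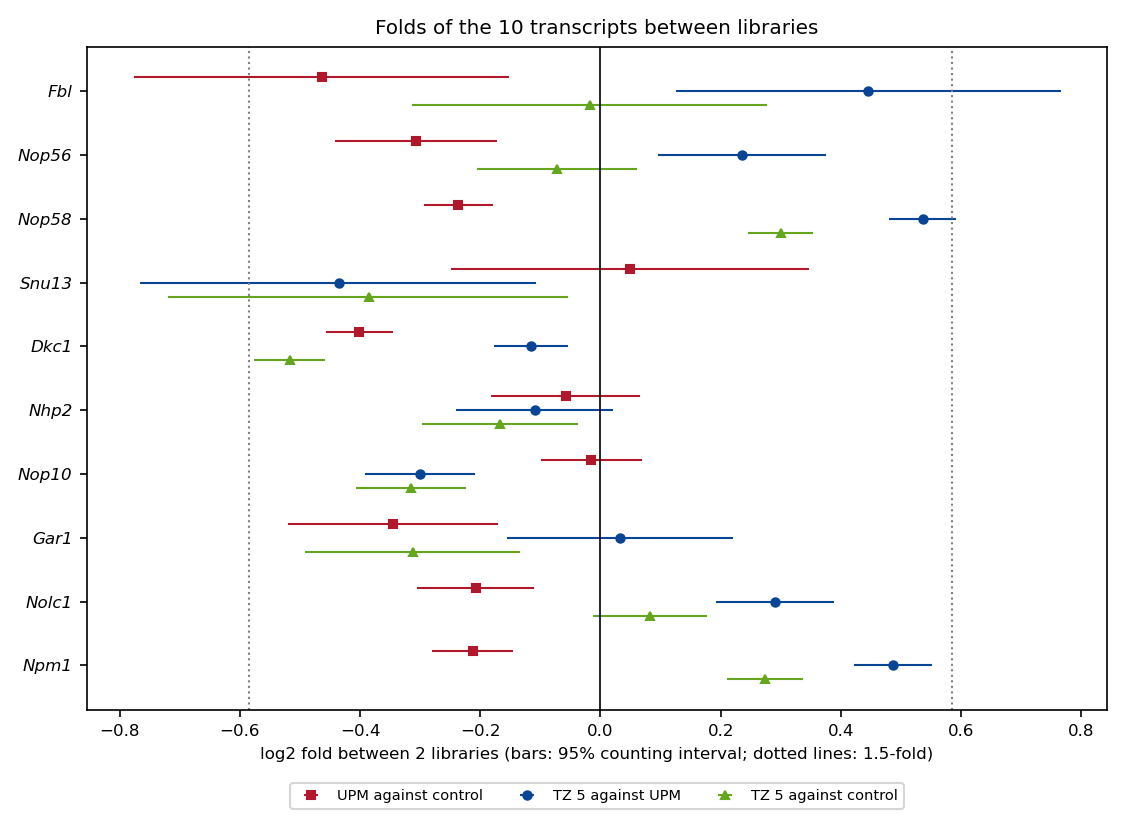
Log2 fold of each transcript (horizontal axis) for UPM against control (squares), TZ 5 against UPM (circles) and TZ 5 against control (triangles), with bars for the 95% counting interval and dotted lines at 1.5-fold. Nop58, Nolc1 and Npm1 lie left of 0 for UPM against control and right of 0 for TZ 5 against UPM, and Dkc1 lies left of 0 in all 3.

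The dose of TZ was tested as a number in a fit of all 5 libraries with a term for UPM (edgeR quasi-likelihood test, Benjamini-Hochberg adjusted over the 12381 genes tested). Nop58 rose by a log2 value of 0.54 over 5 µg/mL (SE 0.11, adjusted p = 0.000592), and Npm1 rose by 0.50 (SE 0.11, adjusted p = 0.00158). These were 2 of 10 members, where 5.70% of all genes passed. In both the 4 particle-exposed libraries stood in order of dose. Of the others Nop10 had the smallest p, with a log2 value of −0.33 (SE 0.12, adjusted p = 0.0773), ahead of Nolc1 with 0.28 (SE 0.11, adjusted p = 0.147). Values for the rest ran from 0.34 (SE 0.22) for Fbl to −0.29 (SE 0.26) for Snu13, with Dkc1 at −0.22 (SE 0.11, adjusted p = 0.306) and Gar1 at −0.00 (SE 0.15).

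The 5 libraries leave 2 residual degrees of freedom in this fit, beside 63.5 borrowed across genes, so the p-values rest mostly on spread shared by all genes. Without the UPM library neither Nop58 nor Npm1 passed (adjusted p = 0.113 and 0.102), with log2 values of 0.46 and 0.47, and 202 genes passed in place of 706. Nop10 passed with dose as a rank (adjusted p = 0.0216) and without TZ 5 (adjusted p = 0.0319). The adjusted p of Nop58 ran from 2.17e-05 to 0.113 over 9 alternatives and that of Npm1 from 0.000169 to 0.102.

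The UPM term of the same fit passed 0.170% of all genes and 0 of 10 members (edgeR quasi-likelihood test). DESeq2 also passed 0 members. By edgeR 972 of the 12381 genes tested reached p under 0.05 before adjustment, among them 3 members. They were Nop56 with a log2 value of −0.32 (SE 0.12, adjusted p = 0.440), Dkc1 with −0.27 (SE 0.10, adjusted p = 0.494) and Gar1 with −0.32 (SE 0.14, adjusted p = 0.580). All 10 estimates were below 0, with a median of −0.23 against 0.01 over all genes tested, and they share the lone control library. The term is not the fold of UPM against control, since the fit also uses the TZ libraries. Snu13 alone had such a fold above 1, at 1.03, where its term was −0.29.

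**Figure D3:**
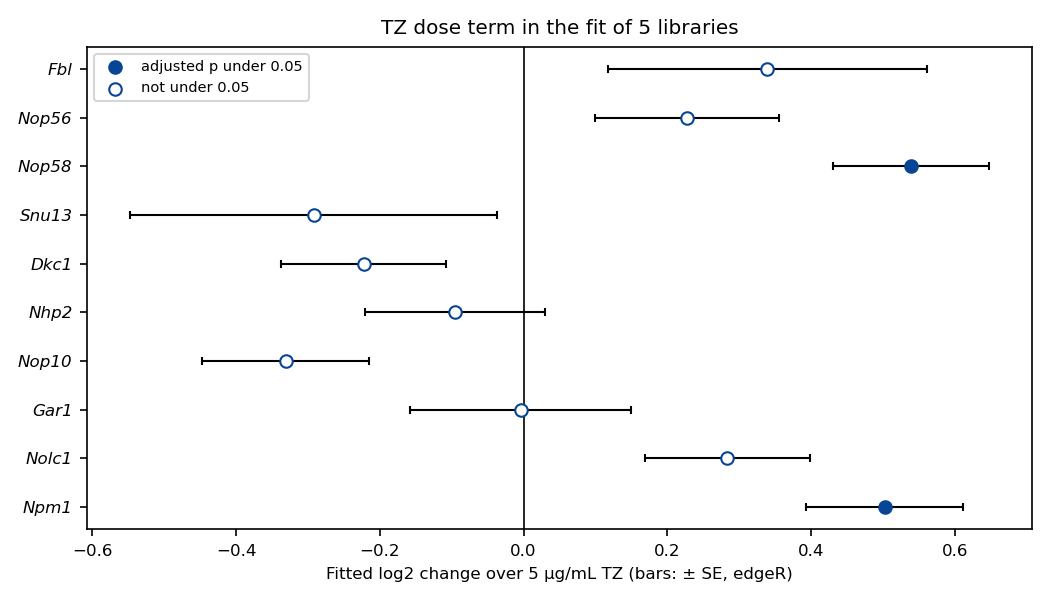
Fitted log2 change over 5 µg/mL TZ (horizontal axis) for each transcript in the fit of 5 libraries, with bars for the SE and filled points where the adjusted p was under 0.05. Nop58 at 0.54 and Npm1 at 0.50 are filled, and Snu13, Dkc1, Nhp2 and Nop10 lie left of 0.

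Ratios of counts between single members differed between libraries. Counts of Nop58 per count of Dkc1 numbered 0.981 for UPM, 0.910 for TZ 1.25, 1.31 for TZ 2.5 and 1.54 for TZ 5, against 0.875 for the control. The ratio in TZ 5 was 1.57 times that in UPM (1.48 to 1.67) and 1.76 times that in the control (1.67 to 1.86). Counts of Npm1 per count of Nop10 numbered 2.58 in TZ 5 and 1.49 in UPM, a ratio of ratios of 1.73 (1.60 to 1.87). The pairs show those genes and not a contrast of box C/D with box H/ACA proteins, and no such contrast was tested. These ratios were picked after the values were seen, and with 1 library per group they have no replicate check.

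Summed by class, the guide RNAs that these proteins bind were lower in TZ 2.5 and TZ 5 than in UPM, where Nop58 was higher. The 106 Snord genes, which are box C/D RNAs, summed to 802 CPM in UPM, 721 CPM in TZ 1.25, 441 CPM in TZ 2.5 and 322 CPM in TZ 5, against 611 CPM in the control. The 40 Snora genes, which are box H/ACA RNAs, summed to 283 CPM in UPM, 279 CPM in TZ 1.25, 196 CPM in TZ 2.5 and 133 CPM in TZ 5, against 251 CPM in the control. Of these, 74 Snord and 33 Snora genes had a count in any library, and 5 and 8 had a mean of at least 10 CPM over UPM and TZ 5. In the dose fit, where 360 of all 12381 genes fell and 346 rose, 4 of 30 tested Snord genes and 10 of 29 tested Snora genes fell and 0 rose (edgeR quasi-likelihood test, adjusted p under 0.05), while DESeq2 passed 2 and 0. These are mostly RNAs without a poly(A) tail, which a library primed with oligo-dT captures only in part. Mitochondrial ribosomal RNA was also lower in TZ 2.5 and TZ 5 than in UPM, but unlike the snoRNA sums it was not lower in TZ 5 than in TZ 2.5. It made up 8.80% of counts for UPM, 8.64% for TZ 1.25, 7.001% for TZ 2.5 and 7.06% for TZ 5, against 7.94% for the control. Its part in the levels of the 10 mRNAs was not tested.

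Nop56 and the guide RNAs in its introns, whose sequences are given above, were not matched. Gm24451 had 22.1 CPM in UPM, 24.3 CPM in TZ 1.25, 17.0 CPM in TZ 2.5 and 10.9 CPM in TZ 5, against 13.3 CPM in the control. It was 0.493-fold (0.370 to 0.650) in TZ 5 against UPM, where Nop56 was 1.18-fold (1.07 to 1.30), and it fell with dose by 1.13 on the log2 scale (SE 0.27, adjusted p = 0.00463, edgeR quasi-likelihood test). The median over the 29 tested Snora genes in that fit was −1.14, so the fall of Gm24451 was not particular to a guide RNA inside Nop56. In UPM against control Gm24451 was 1.66-fold (1.29 to 2.15), where Nop56 was 0.808-fold. Gm23650, the box C/D RNA, had 11.8 CPM in UPM, 11.6 CPM in TZ 1.25, 9.24 CPM in TZ 2.5 and 6.96 CPM in TZ 5, against 10.6 CPM in the control, and its dose term did not pass (adjusted p = 0.169). Reads of a free guide RNA and of an unspliced Nop56 intron cannot be told apart in a count per symbol.

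The other annotated snoRNAs inside members had few counts. Snord70, Snord11, Gm26287 and Gm26293 inside Nop58 had 0 to 31 counts per library, Snord57, Snord110 and Gm23187 inside Nop56 had 0 to 17, and Gm25520 inside Dkc1 had 0 to 7. Gm26287 had 19 counts in TZ 5 and 2 in UPM, a ratio of 10.5 with an interval of 2.54 to 93.3, and a dose term of 2.32 on the log2 scale (SE 0.97, adjusted p = 0.166, edgeR quasi-likelihood test). Snord11 had 31 counts in TZ 1.25 and 11 in UPM, a ratio of 2.99 (1.46 to 6.59), and its dose term had an adjusted p of 0.737 in the same test. That of Snord57 was 0.639, also by edgeR.

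**Figure D4:**
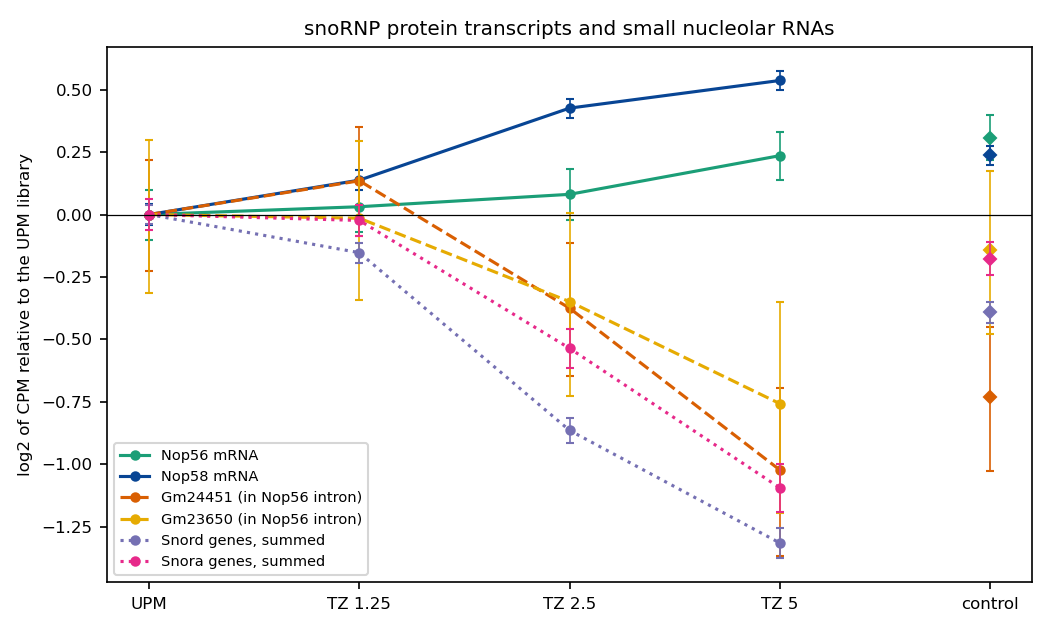
Log2 of CPM relative to the UPM library (vertical axis) in the 5 libraries for the Nop56 and Nop58 mRNAs, both snoRNAs inside Nop56 and the summed Snord and Snora genes, with bars for the 95% Poisson interval of each library's own count. At TZ 5 both mRNAs lie above 0 and the 4 lines for guide RNAs lie below it.

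Annotated neighbours on the opposite strand overlap the 3′ ends of 3 members, where these libraries take their reads. In GENCODE M21 on GRCm38 the overlap is 45 bases between Dkc1 and Mpp1, 44 bases between Nhp2 and Rmnd5b and 5 bases between Nop56 and Idh3b, and no source used here says how strand was handled in counting. Mpp1 had 88.6 CPM in UPM, 94.0 CPM in TZ 1.25, 105 CPM in TZ 2.5 and 111 CPM in TZ 5, against 77.7 CPM in the control, an order unlike that of Dkc1. Idh3b was 1.33-fold (1.2002 to 1.48) in TZ 5 against UPM, in the direction of Nop56, and Rmnd5b was 0.832-fold (0.671 to 1.03). Processed pseudogenes of abundant genes such as Npm1 can also take or share reads, so the levels of the members are less certain than their counting intervals show.

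The assembly factors that load these proteins onto guide RNAs did not pass the dose test. Of 10 genes for the R2TP complex and its partners 0 passed (2 had an unadjusted p under 0.05 and DESeq2 passed 0). At that unadjusted limit 1053 of the 12381 genes tested rose and 1129 fell by edgeR, so such values were common. The median log2 value of the 10 genes was 0.01 over 5 µg/mL against −0.01 over all genes tested. The related ATPases of the R2TP complex stood at opposite ends of the list. Ruvbl2 had 22.2 CPM in UPM, 24.3 CPM in TZ 1.25, 25.8 CPM in TZ 2.5 and 31.9 CPM in TZ 5, against 22.5 CPM in the control. Ruvbl1 had 44.0 CPM in UPM, 35.1 CPM in TZ 1.25, 32.2 CPM in TZ 2.5 and 29.7 CPM in TZ 5, against 40.3 CPM in the control. Their adjusted p-values were 0.159 and 0.0718 (edgeR quasi-likelihood test). Rpap3 had the second highest fold between TZ 5 and UPM in the list, at 1.31, and Nufip1 the second lowest, at 0.848.

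Of 10 genes for cap methylation, export, Cajal bodies and trimming of snoRNAs 0 passed (3 had an unadjusted p under 0.05 and DESeq2 passed 0). The numbers over all genes at that unadjusted limit are given above. The fold between TZ 5 and UPM ran from 0.767 (0.652 to 0.900) for Tent4b, a poly(A) polymerase that marks RNA for trimming, and 0.813 for Ncbp2 to 1.19 for Phax and 1.47 (1.16 to 1.88) for Parn, which removes such tails.

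Over all genes 5.70% passed the dose test, and the counts for ribosome assembly genes stand against that share. Of 34 genes of the small-subunit processome, the large particle built around the U3 snoRNA, 2 rose and 1 fell (edgeR quasi-likelihood test), while DESeq2 passed 0. Utp6 rose by 0.51 (SE 0.15, adjusted p = 0.0277), Wdr43 fell by 0.35 on the log2 scale (SE 0.11, adjusted p = 0.0454), and Nop14, named after its value was seen, rose by 0.37 (SE 0.11, adjusted p = 0.0342). Of 27 genes put on a list for large-subunit assembly 4 rose and 0 fell, with a median of 0.07, and DESeq2 passed 1. Further genes of ribosome assembly stand on the list of other nucleolar proteins below, where 4 fell. These counts thus depend on how genes were sorted. Nsa2 rose by 1.102 (SE 0.15, adjusted p = 1.86e-07) and the helicase gene Ddx18 by 0.50 (SE 0.14, adjusted p = 0.0151), with Gnl2 and Brix1, named after their values were seen, the others.

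RNA polymerase I makes the ribosomal RNA that snoRNPs modify. Of 16 genes for its subunits and factors 1 fell and 0 rose, a share near the 5.70% of all genes. It was Ubtf, the activator that binds ribosomal DNA. Ubtf had 121 CPM in UPM, 119 CPM in TZ 1.25, 96.9 CPM in TZ 2.5 and 87.2 CPM in TZ 5, against 124 CPM in the control, and fell by 0.53 on the log2 scale (SE 0.14, adjusted p = 0.00904, edgeR quasi-likelihood test). Tcof1, encoding treacle, which brings polymerase I and snoRNPs together, was 1.27-fold (1.17 to 1.38) in TZ 5 against UPM with an adjusted p of 0.0805 for dose in the same test.

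Of 12 tested genes put on a list of other nucleolar proteins 4 fell and 0 rose, and DESeq2 passed 4. Of all genes 5.70% passed by edgeR in either direction. Proteins on this list can also take part in ribosome assembly, so it is not a class apart from the lists above. Nop53 fell by 0.68 on the log2 scale (SE 0.17, adjusted p = 0.00648) and Nol11 by 0.55 (SE 0.12, adjusted p = 0.00204, edgeR quasi-likelihood test for both), and Nol12 and Nifk, named after their values were seen, were the others. Npm3, a paralog of Npm1, had 22.9 CPM in UPM, 23.1 CPM in TZ 1.25, 28.6 CPM in TZ 2.5 and 28.0 CPM in TZ 5, against 28.8 CPM in the control, with a fold between TZ 5 and UPM of 1.22 (0.992 to 1.51). Fbll1, a paralog of Fbl, had 0 counts in all 5 libraries, which allows up to 3 counts or 0.390 to 0.439 CPM.

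The 5 genes whose pattern over the 5 libraries lay nearest to the median pattern of the members were Ddx21, Dnase2a, Usp16, Drap1 and Cacybp, among 3845 other genes with a mean of at least 50 CPM. The measure was the root mean square distance of log2 CPM after centring each gene. It was 0.021 for Ddx21, a nucleolar RNA helicase, 0.023 for Dnase2a, 0.025 for Usp16 and 0.026 for Drap1 and Cacybp. Ddx21 had 404 CPM in UPM, 418 CPM in TZ 1.25, 434 CPM in TZ 2.5 and 438 CPM in TZ 5, against 482 CPM in the control. Such a median hides the differences between members.

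Promoters of the members are shown because Nop58 and Nop10 differed in direction at the higher doses. RefSeq windows on GRCm38.p6, from 250 bases before to 50 bases after the start site, were found for 8 members, and Fbl and Npm1 had no entry. The letters CGGAAG, which hold the shorter GGAA core recognised by ETS factors, were searched on both strands. So were the letters of the CCAAT box, the GC box GGGCGG, the E-box CACGTG and the TATA box TATAAA. Matches of GGGCGG and of CGGAAG can share the letters CGG. CGGAAG was in 5 of 8 member windows and in 16.9% of all 32851 windows. CCAAT was in 4 of 8 against 37.4%, GGGCGG in 5 of 8 against 35.7% and TATAAA in 1 of 8 against 13.6%. CACGTG, which MYC binds, was in 0 of 8 against 7.15%. A match anywhere in the window counted, so these are matches of letters and not placed promoter elements. The TATAAA match, in Dkc1, began at −189 from the start site. CCAAT matches began at 2 in Nop10 and at 25 in Dkc1, and before the start site in Nhp2 and Nop56. The 60 bases from 50 before the start site onward are given for each on its own strand, with CGGAAG or its reverse CTTCCG in capitals.
Nop10, chr2:112261876-112261935 (+): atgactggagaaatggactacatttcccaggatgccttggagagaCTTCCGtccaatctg
Nhp2, chr11:51619723-51619782 (+): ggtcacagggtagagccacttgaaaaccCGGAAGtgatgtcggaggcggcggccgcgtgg
Gar1, chr3:129831387-129831446 (-): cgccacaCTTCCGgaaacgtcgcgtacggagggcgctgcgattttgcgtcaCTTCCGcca
Snu13, chr15:82047589-82047648 (-): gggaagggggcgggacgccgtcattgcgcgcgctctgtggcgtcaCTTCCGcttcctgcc
Nolc1, chr19:46075797-46075856 (+): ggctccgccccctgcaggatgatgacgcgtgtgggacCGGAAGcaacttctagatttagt
Nop58, chr1:59684956-59685015 (+): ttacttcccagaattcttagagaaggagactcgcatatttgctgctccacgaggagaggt
Nop56, chr2:130274362-130274421 (+): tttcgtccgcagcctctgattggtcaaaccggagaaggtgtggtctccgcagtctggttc
Dkc1, chrX:75095804-75095863 (+): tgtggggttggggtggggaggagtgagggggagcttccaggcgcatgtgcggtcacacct
At least 1 match lies in the 60 bases shown of Nop10, Nhp2, Gar1, Snu13 and Nolc1. Of these, Nolc1 was higher in TZ 5 than in UPM, Nop10 and Snu13 were lower, and the intervals of Nhp2 and Gar1 held 1. CGGAAG and its reverse are not in the whole windows of Nop58, Nop56 and Dkc1. The shorter GGAA was not searched, and its reverse TTCC stands in the bases shown of Nop58 and Dkc1. A link between any of these letters and the levels was not tested.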

How the data were processed

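Expression was measured in 5 libraries, 1 per group, by QuantSeq 3′ sequencing (oligo-dT primed, single-end, 75 bp), per the labels' protocols. The authors deposited unnormalised read counts for each gene symbol. STAR, edgeR and genome build GRCm39 are named in the submitters' processing notes with no version, and the counting program, annotation and strand handling are stated in no source used here. Nothing in the labels describes separate cultures, so spread between libraries may be technical.

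From the counts, CPM was computed on library totals times TMM factors (edgeR 4.0.16, limma 3.58.1, R 4.3.3), with Poisson intervals and Clopper-Pearson fold intervals at 95%. A member was called at 1.5-fold with a mean of at least 10 CPM, and 1.2-fold was an alternative. The dose fit used filterByExpr and glmQLFTest on all 5 libraries, with UPM (0 or 1) and TZ dose as terms, and the SE came from the estimate and its F statistic. Depth limits Fbl and Snu13, where the interval reaches 16.4% and 20.6% of the lowest count to either side. The code was tested on simulated data. Alternatives were DESeq2 1.42.0, other scalings, filters, folds, thinned libraries, dose as rank and each library left out. By rule the genes named are the 10 members, up to 2 highest and 2 lowest per list by TZ 5 against UPM, snoRNAs inside members and the 5 nearest profiles. Outside this rule stand Nop14, Gnl2, Brix1, Nol12 and Nifk, named after their values were seen, the overlapping neighbours Mpp1, Idh3b and Rmnd5b, the paralog Fbll1 and the markers. The members and lists were chosen with earlier results of these data known. SnoRNA sequences came from GENCODE M21 and promoters from RefSeq (GRCm38.p6), an earlier build than that of the counts.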

Additional observations from a re-analysis of the deposited data

How the results depend on the processing

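No paired analysis was possible because each group has 1 library. Under DESeq2 size factors, total counts, a mean CPM minimum of 1 and thinned libraries, the numbers of members called between libraries were as reported, and all 100 member folds under the 2 other scalings stayed within their counting intervals. A fold of 1.2 called 4 members for UPM against control, 2 for TZ 1.25 against UPM, 5 for TZ 2.5 against UPM, 6 for TZ 5 against UPM and 6 for TZ 5 against control, and a fold of 2 called 0 in each. Leaving out 1 library gave 0 to 3 members for the dose term, with 0 without UPM and 3 without TZ 5, and 202 to 678 genes. DESeq2 passed 322 genes for dose where edgeR passed 706. For the UPM term 21 genes passed, 34 with no filter, 4 with DESeq2 and 24 to 83 with 1 library left out, where the 83 came without TZ 5, and 0 members passed under each of these. The sign of the dose estimate changed for members that did not pass. With 1 library left out it ran from −0.0118 to 0.96 for Fbl, from −1.36 to 0.60 for Snu13, from −0.47 to 0.0194 for Dkc1 and from −0.0555 to 0.0277 for Gar1, which was at 0.010 with no filter. Without UPM the estimate of Fbl was below 0 and that of Snu13 above 0. The UPM estimate of Nop10 ran from −0.13 to 0.0148. The cause was not tested. Libraries without replicates limit every fold, and depth limits Fbl and Snu13 most.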
